A study of Mus musculus with 6 samples.

Results

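The Fc gamma receptor genes described here are Fcgr1, Fcgr2b, Fcgr3, Fcgr4 and Fcer1g, the mouse genes of the receptors for immunoglobulin G and of their shared signalling chain. They are 5 of the 20866 genes named on the array, and each was read by 1 probe. The 6 groups of sorted thymic cells, each with 1 one-colour Agilent mouse array, came from C57BL/6 mice aged 1.5 to 2 weeks. In each of 3 populations a double knockout of TNF and RelA (TNFalpha and RelA double KO in the labels) was set against a knockout of TNF alone (TNFalpha-KO), so that TNF is missing from both genotypes. The populations were CD4+CD25hi thymocytes, a gate rich in regulatory T cells, with RNA pooled from 5 mice per genotype; CD45-EpCAM+ thymic epithelial cells, from 10 thymi per genotype; and CD45+EpCAM- thymic stroma, enriched for macrophages and dendritic cells, also from 10 thymi per genotype. The family was chosen by its measured levels across the populations and by its genotype differences on these same arrays, so that both are given as a description with no test. With 1 array per group no genotype difference has a replicate check.

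Fc gamma receptors bind the constant part of antibodies that coat a target, and trigger phagocytosis, cytokine release and antigen uptake, above all in macrophages, monocytes, granulocytes and dendritic cells. Fcgr1 encodes the high-affinity receptor, and Fcgr3 and Fcgr4 encode further activating receptors. These 3 signal through the gamma chain encoded by Fcer1g, which carries an activating ITAM motif and is also used by the high-affinity receptor for immunoglobulin E and by several C-type lectins. Fcgr2b encodes the inhibitory receptor, whose ITIM motif recruits the phosphatase SHIP1, and it is the family member that B cells express. In mice, interferon gamma is known to raise Fcgr1 and Fcgr4.

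A level below is log2 of the processed signal minus the 75th percentile of the array, so that 0 is the array's 75th percentile, and a difference is the level in the double knockout minus the level in the TNF knockout. Between arrays the 75th percentile ran from 108 to 675 signal units, and 47.3% to 66.2% of probes were well above background by the scanner software's own test. Dimmest by both measures was the double-knockout array of the CD45-EpCAM+ epithelium, with its lowest detectable level at -2.82, against -4.78 on the TNF-knockout array of that population. Rela, the gene removed in the double knockout, had levels of 2.66, 1.81 and 3.30 in the double knockout against 4.52, 3.84 and 4.04 in the TNF knockout, in CD4+CD25hi thymocytes, epithelium and stroma in turn. Tnf, removed from both genotypes, had levels of -0.78, -2.71 and -0.64 in the double knockout against -0.64, -1.49 and -0.57 in the TNF knockout, and it was well above background on 5 of the 6 arrays. Where these probes lie relative to the deleted parts is not given in the sources used here. Il2ra, which encodes CD25, was at 6.14 in double-knockout and 5.96 in TNF-knockout thymocytes, and Epcam at 1.49 in double-knockout and 2.12 in TNF-knockout epithelium. Ptprc, which encodes CD45, lay at 0.72 and -0.46 in double-knockout and TNF-knockout CD45-EpCAM+ epithelium, and between 3.43 and 3.80 on the other 4 arrays. Cd4 was nearly as high in CD45+EpCAM- stroma (3.77 in the double knockout, 3.89 in the TNF knockout) as in CD4+CD25hi thymocytes (4.01 and 4.04). Summed over 6 T cell markers, the signal in units of the 75th percentile was 311 in double-knockout and 309 in TNF-knockout stroma. In the thymocytes that sum was 279 and 296, so that the CD45+EpCAM- sort held many T-lineage transcripts. Summed over 7 thymic epithelial markers, the signal was 974 in double-knockout and 693 in TNF-knockout epithelium, in units of the 75th percentile, and at most 1.08 on any other array. In these bulk sorts fewer cells of a type and less RNA per cell cannot be told apart.

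The stretches of 250 bases before the start of Fcgr1, Fcgr4 and Fcgr3 are shown because the first pair were higher in the double knockout in epithelium and stroma, whereas their relative Fcgr3 was lower in the epithelium. They come from RefSeq's promoter table of build GRCm38.p6, read 5′ to 3′ on the gene's strand, and span chr3:96293970-96294219 (minus strand), chr1:171018676-171018925 (plus strand) and chr1:171059404-171059653 (minus strand, the first of the 2 starts listed for Fcgr3). Capitals mark matches, on either strand, to 4 motifs: the STAT site GAS (TTCNNNGAA), the interferon response element ISRE (GAAA and GAAA with any 2 bases between), the core bound by the myeloid factor PU.1 (GAGGAA) and the NF-kB site.
Fcgr1: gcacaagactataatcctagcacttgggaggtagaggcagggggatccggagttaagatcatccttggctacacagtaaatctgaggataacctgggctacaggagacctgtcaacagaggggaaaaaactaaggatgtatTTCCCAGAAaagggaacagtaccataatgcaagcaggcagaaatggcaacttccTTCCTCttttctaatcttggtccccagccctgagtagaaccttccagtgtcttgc
Fcgr4: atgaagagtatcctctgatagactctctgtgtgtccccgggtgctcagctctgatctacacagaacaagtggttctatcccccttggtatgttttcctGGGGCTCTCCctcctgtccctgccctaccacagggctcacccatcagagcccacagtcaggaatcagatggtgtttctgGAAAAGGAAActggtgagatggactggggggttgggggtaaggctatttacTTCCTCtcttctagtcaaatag
Fcgr3: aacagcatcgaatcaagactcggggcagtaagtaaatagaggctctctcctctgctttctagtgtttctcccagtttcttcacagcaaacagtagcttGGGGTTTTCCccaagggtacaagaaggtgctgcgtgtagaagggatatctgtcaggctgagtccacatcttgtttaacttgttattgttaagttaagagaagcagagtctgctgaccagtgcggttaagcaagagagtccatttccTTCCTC
The capitals in Fcgr1 are a GAS match with its first base at -109, counted from the start, and a PU.1 match. Those in Fcgr4 are, in order, an NF-kB, an ISRE and a PU.1 match, and those in Fcgr3 are an NF-kB and a PU.1 match. No matches overlap. Neither the Fcer1g nor the Fcgr2b window holds the letters of any of these motifs. Among all 32851 RefSeq windows of 300 bases (250 before and 50 after a start), 8.3% hold a GAS match, 3.44% an ISRE match, 28.3% a PU.1 match and 8.46% an NF-kB match. A match is a description of letters and not a bound site.

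Fcgr4 was higher in the double knockout in all 3 populations. In CD4+CD25hi thymocytes its level was -1.01 in the double knockout and -2.36 in the TNF knockout, a difference of 1.35 or 2.54-fold. In CD45-EpCAM+ epithelium it was -1.09 in the double knockout and -3.84 in the TNF knockout, a difference of 2.75 or 6.72-fold. In CD45+EpCAM- stroma it was -0.68 in the double knockout and -2.67 in the TNF knockout, a difference of 1.99 or 3.96-fold. All 3 double-knockout arrays thus lay above all 3 TNF-knockout arrays, and the double-knockout levels spanned a much narrower range than the TNF-knockout levels. The share of all genes whose arrays separate by genotype in this way is not given here. The unscaled processed signal ran the same way, at 135 units in double-knockout against 62.1 in TNF-knockout thymocytes, 50.6 against 25.8 in the epithelium and 421 against 99.5 in the stroma, in the same order of genotypes. In the epithelium the unscaled gap was much smaller than the scaled one. The 75th percentile there was 108 units on the double-knockout array and 370 on the TNF-knockout array. The scanner software's error of the difference was 0.21, 0.28 and 0.21 in these populations, and probes for the same gene differed among themselves with an SD of 0.22, 0.32 and 0.21. Both of these cover the array only, not the spread between pools of mice. Of all genes measured, 87 of 12936 had a higher difference than Fcgr4 in CD4+CD25hi thymocytes, 41 of 13208 in CD45-EpCAM+ epithelium and 40 of 14588 in CD45+EpCAM- stroma. With normexp background correction, which adds an offset and draws dim probes together, the CD4+CD25hi difference was 0.86 and no longer 2-fold, and that in CD45-EpCAM+ epithelium was 3.19-fold, where quantile normalization gave 8.72-fold.

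Fcgr1 was higher in the double knockout in epithelium and stroma, by less than Fcgr4. In CD45+EpCAM- stroma its level was -1.92 in the double knockout and -2.93 in the TNF knockout, a difference of 1.01 or 2.02-fold, which was under 2-fold with quantile normalization (0.90) and with normexp (0.59). In CD45-EpCAM+ epithelium it was -1.76 in the double knockout and -3.53 in the TNF knockout, a difference of 1.77 or 3.42-fold, which was 2.22-fold with normexp. That difference is present only after the arrays are scaled to each other: the processed signal itself was 31.8 units on the double-knockout array and 32.0 units on the brighter TNF-knockout array. In CD4+CD25hi thymocytes Fcgr1 was at the edge of detection, with levels of -4.31 in the double knockout, where it was not well above background, and -4.38 in the TNF knockout, and no fold can be given.

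Fcgr3 was lower in double-knockout epithelium, unlike Fcgr1 and Fcgr4, and close to Fcgr1 in stroma. In CD4+CD25hi thymocytes its level was -1.60 in the double knockout and -1.59 in the TNF knockout. In CD45-EpCAM+ epithelium it was -2.25 in the double knockout and -1.40 in the TNF knockout, a difference of -0.85, and in CD45+EpCAM- stroma it was -1.02 in the double knockout and -1.81 in the TNF knockout, a difference of 0.79. In stroma Fcgr1 gained on Fcgr3 by 0.22 only, about the scanner error of either. Neither difference of Fcgr3 reached 2-fold, and the CD45-EpCAM+ difference was 0.06 with normexp and -1.03 with quantile normalization. Within the same arrays Fcgr4 gained on Fcgr3 by 1.36, 3.60 and 1.20 (log2, double knockout minus TNF knockout) in thymocytes, epithelium and stroma, although the genes are neighbours on chromosome 1.

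Fcgr2b, the inhibitory receptor, could be followed in CD45+EpCAM- stroma only. Its level there was -1.89 in the double knockout and -2.27 in the TNF knockout, a difference of 0.38. The 10 spots of this probe spread with an SD of 0.05 on the double-knockout array and 0.10 on the TNF-knockout array. Against Fcgr2b, the activating receptors gained in that fraction, Fcgr4 by 1.61, Fcgr1 by 0.63 and Fcgr3 by 0.41. In CD45-EpCAM+ epithelium the level was -3.25 in the double knockout, not well above background, and -4.22 in the TNF knockout, and in CD4+CD25hi thymocytes the gene was not well above background on either array (-6.52 in the double knockout and -6.55 in the TNF knockout).

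Fcer1g, the signalling chain, differed between genotypes in the thymocytes. In CD4+CD25hi thymocytes its level was -1.41 in the double knockout and -3.36 in the TNF knockout, a difference of 1.95 or 3.86-fold, with 23 of 12936 genes higher; with normexp the difference was 0.94. In epithelium and stroma, where the gene was far brighter, the genotypes lay close together. The levels were 1.57 in the double knockout and 1.42 in the TNF knockout in CD45-EpCAM+ epithelium, and 2.60 in the double knockout and 2.38 in the TNF knockout in CD45+EpCAM- stroma, differences of 0.15 and 0.22. Set against its signalling chain on the same arrays, Fcgr4 gained on Fcer1g by 2.60 in epithelium and by 1.76 in stroma, while in thymocytes this difference was -0.60.

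**Figure D1:**
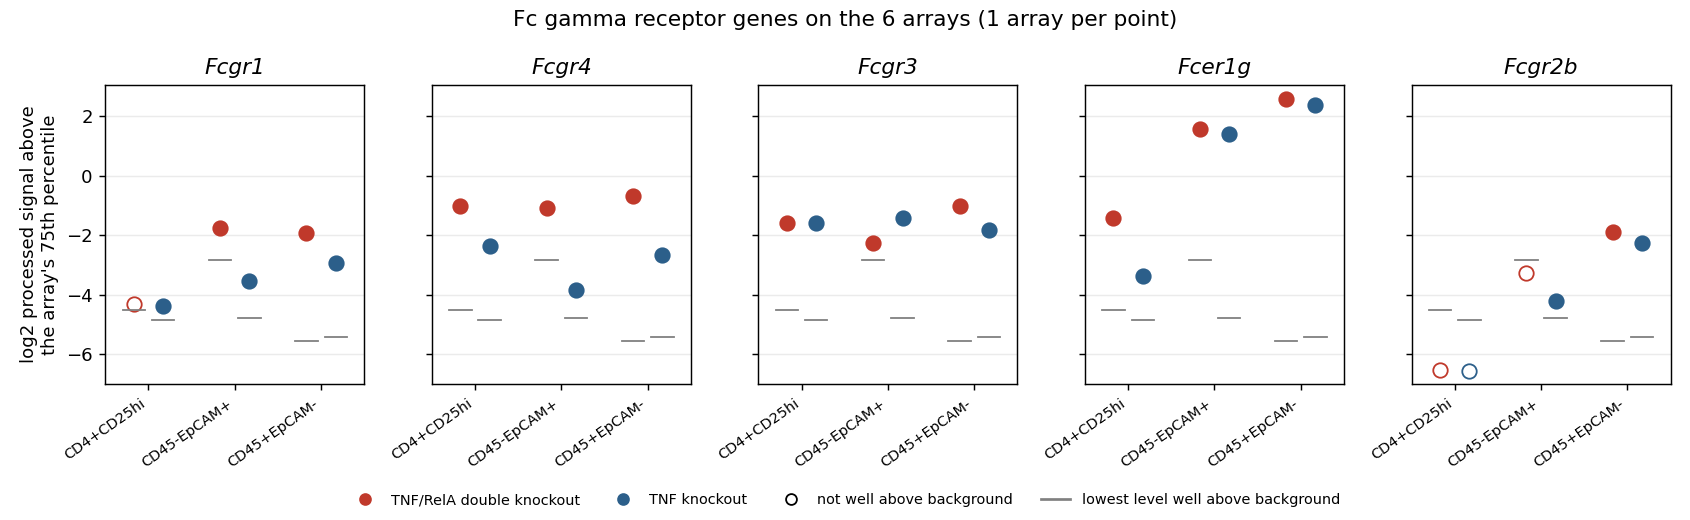
Level of each gene on each of the 6 arrays (log2 processed signal above the array's 75th percentile), with the double knockout (red) left of the TNF knockout (blue) in each population. Open points were not well above background and grey bars mark the lowest detectable level of that array. In each population the red point of Fcgr4 lies above the blue one, and the points of Fcer1g lie well apart in CD4+CD25hi thymocytes only.

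In each population 2 of the 5 genes were at least 2-fold higher in the double knockout and none was 2-fold lower: Fcgr4 and Fcer1g in CD4+CD25hi thymocytes, and Fcgr4 and Fcgr1 in epithelium and in stroma. A fold could be given for 3 of the genes in the thymocytes, 4 in the epithelium and 5 in the stroma. Of all genes measured, 1.68%, 5.1% and 1.82% were at least 2-fold higher in these populations and 1.28%, 9.3% and 2.08% at least 2-fold lower, which makes 2.95%, 14.4% and 3.89% in either direction. The genes were chosen with these differences known, so that their counts are not set against those shares. The median difference of the genes with a fold was 1.35, 0.96 and 0.79. In the thymocytes this median leaves out Fcgr1 and Fcgr2b, whose dim levels there were 0.07 and 0.03 apart. All genes measured had medians of -0.02, 0.03 and -0.01, which for the same reason are not set against those of the family.

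**Figure D2:**
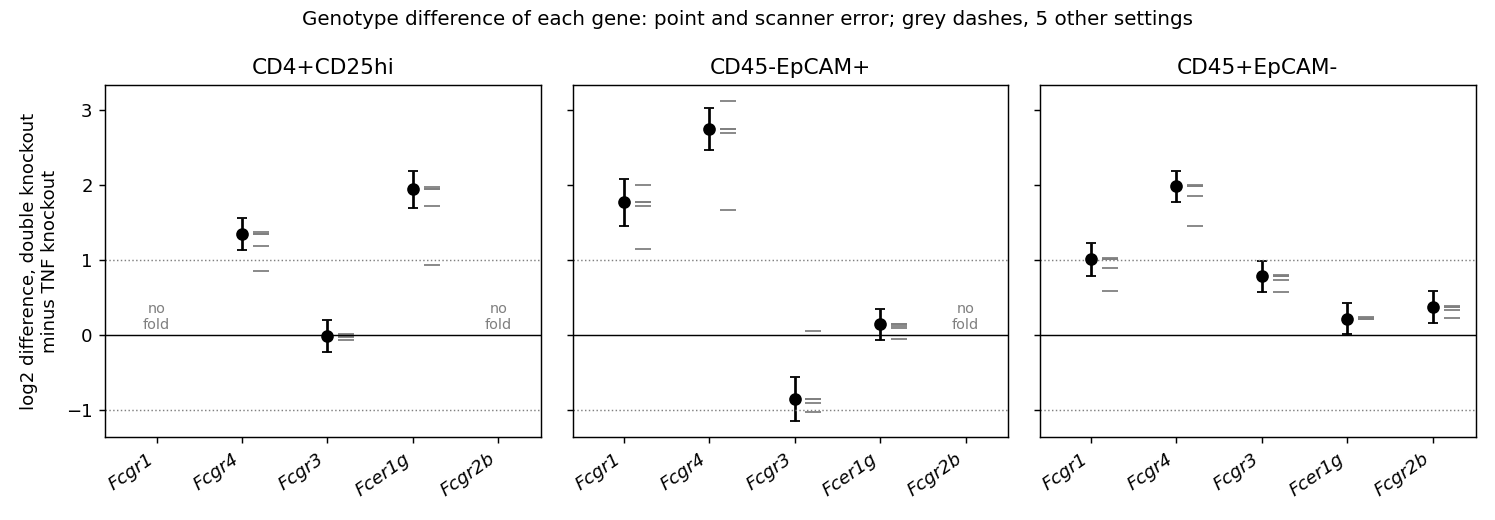
Difference of each gene (log2, double knockout minus TNF knockout) in each population. Bars are the scanner software's error of the difference, not a spread between replicates; grey dashes are the values under 5 other processing settings, and "no fold" marks a gene dim on an array such that no ratio can be given. Dotted lines mark 2-fold. Fcgr4 stays above 0 in every setting shown, from 0.86 in CD4+CD25hi thymocytes to 3.13 in CD45-EpCAM+ epithelium.

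Fcgr4 was 1 of 4 genes at least 2-fold higher in the double knockout in all 3 populations, of 10966 genes with a fold in each (0.0365%), while 10 genes (0.0912%), none of them of the family, were 2-fold lower in all 3. The other genes were Chil3, which encodes a chitinase-like protein of macrophages and neutrophils, Txnip, which encodes a thioredoxin-binding protein that restrains glucose uptake, and Abca1, which encodes a cholesterol exporter. Chil3 differed by 2.62, 2.83 and 2.89, Txnip by 1.43, 1.41 and 1.22, and Abca1 by 1.15, 1.34 and 1.02 in thymocytes, epithelium and stroma. Fcgr4 was among these genes also with quantile normalization (3 genes) and with scaling to the median of detected probes (4 genes), but with normexp Chil3 alone passed. Without the CD45-EpCAM+ pair, whose double-knockout array was the dimmest, 28 genes were 2-fold higher in the remaining 2 populations. In the epithelium and the stroma at once, Fcgr4 and Fcgr1 were 2 of 21 such genes, of 11830 measured in both (0.178%).

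**Figure D3:**
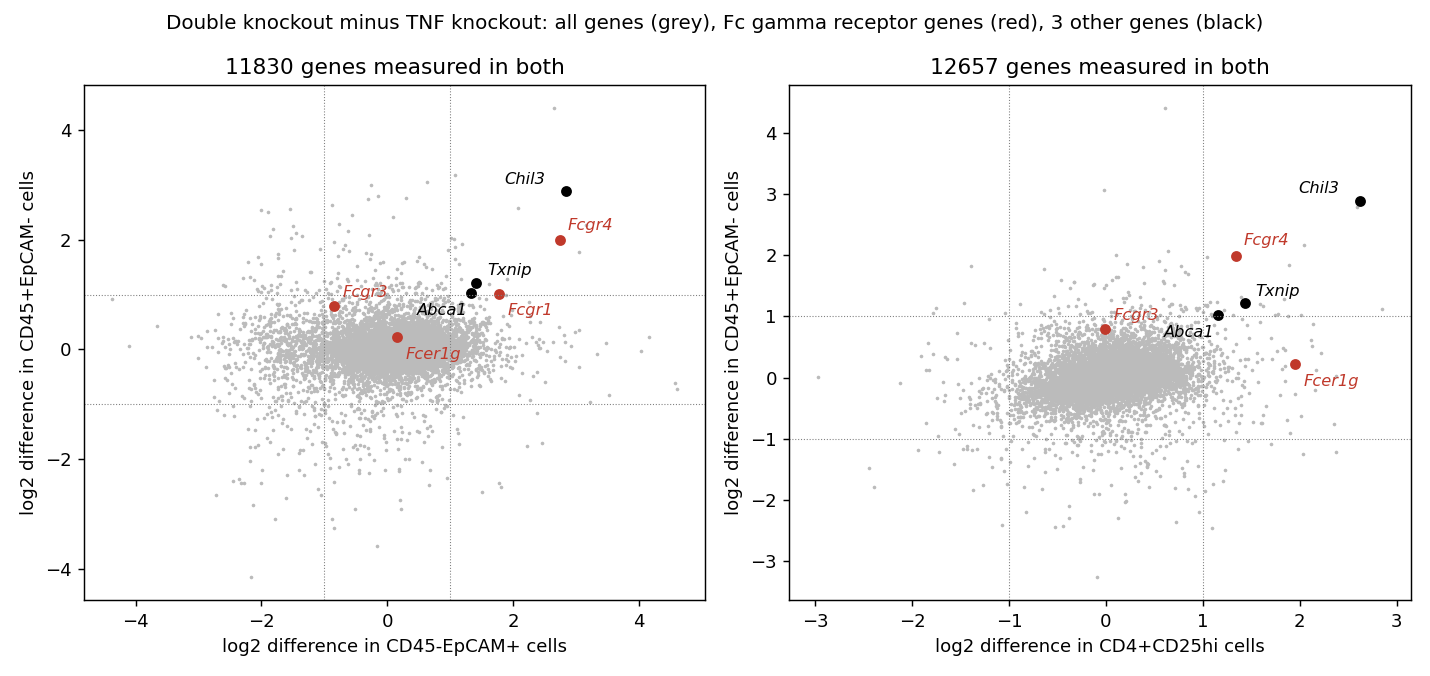
Difference of every gene (log2, double knockout minus TNF knockout) in CD45+EpCAM- stroma against CD45-EpCAM+ epithelium (left) and against CD4+CD25hi thymocytes (right). Dotted lines mark 2-fold. Fcgr4 lies at the upper right of both panels, below Chil3. In the left panel Fcgr1 lies past 2-fold on both axes and Fcgr3 left of 0, and in the right panel Fcer1g lies past 2-fold on the horizontal axis alone. Fcgr2b had no fold on the horizontal axes.

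Markers of the cells that carry Fc gamma receptors differed too. In the stroma all 9 measured of 12 macrophage markers were above 0, with a median of 0.77 and a highest difference of 1.22 (Mrc1), and the list's summed signal was 22.5 in the double knockout and 13.6 in the TNF knockout, in units of the 75th percentile. Cd163 and Vsig4, which mark resident macrophages, were not well above background on any array. The differences of Fcgr1 (1.01), Fcgr3 (0.79) and Fcgr2b (0.38) lay within the range of these markers, and that of Fcgr4 (1.99) lay above it. Of the granulocyte markers 6 of 9 were at least 2-fold higher there, S100a8 by 2.19 and S100a9 by 2.07, and their summed signal was 139 in the double knockout and 115 in the TNF knockout. All 8 dendritic cell markers were below 0, with a median of -1.02, while their summed signal was close, at 118 in the double knockout and 123 in the TNF knockout. B cell markers, of cells in which Fcgr2b is the Fc gamma receptor, had a median of -0.47. The part of these shifts in the differences of the Fc gamma receptor genes was not tested.

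In CD45-EpCAM+ epithelium the measured macrophage markers had a median of 0.79 over 7 genes, with C1qc at 1.35, Adgre1 at 0.79 and Axl at -0.88, and the list's summed signal was 10.5 in the double knockout and 8.33 in the TNF knockout. Granulocyte markers had a median of -1.76 with 5 of 8 lower by 2-fold or more, and Csf3r at 0.85, and their summed signal was 83.0 in the double knockout and 73.7 in the TNF knockout, while T cell markers had a median of 0.86 over 6 genes. Of 9 genes linked to alternative activation of macrophages 6 were at least 2-fold higher, among them Cd209f at 4.60, Retnla at 3.16 and Arg1 at 2.64, while Chil4 (-1.13), Il4ra (-0.53) and Mgl2 (-0.26) were below 0. The summed signal of this list was 116 in the double knockout and 110 in the TNF knockout. In CD4+CD25hi thymocytes 3 of 11 macrophage markers on the array were well above background in each genotype, and the list's summed signal was 2.05 in the double knockout and 2.02 in the TNF knockout. Among these, Csf1r differed by 0.28, C1qb by 0.53 and Axl by -0.74. Of the same list, Adgre1, C1qa, C1qc, Mertk and Mrc1 were not well above background on either thymocyte array. Fcgr4, Fcgr3 and Fcer1g were well above background on both. NK cell markers, of cells that carry Fcgr3 and Fcer1g, had a median of 0.22 over 4 genes there, and Ncr1 was not well above background on any array. Monocyte markers had medians of 0.19, -0.11 and -0.11 in thymocytes, epithelium and stroma. Their summed signal was 42.5 in the double knockout and 25.9 in the TNF knockout in thymocytes, 50.9 and 22.04 in epithelium, and 36.3 and 40.3 in stroma. Itgam was higher by 0.75, 1.54 and 0.47, while 2 of 4, 3 of 5 and 3 of 6 measured monocyte markers were below 0. The part of these markers in the differences of Fcgr4, Fcgr1 and Fcer1g was not tested.

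Interferon-induced genes had a median of -0.43 in the thymocytes, of 0.12 in the epithelium and of -0.39 in the stroma. Of the 12 measured, 3 were above 0 and 9 below it in the thymocytes, and 8 above and 4 below in the epithelium. In the stroma all 12 were below 0. Irf1, which encodes an interferon-regulated transcription factor, differed by -0.07 in the stroma. The part of interferon in the differences of Fcgr1 and Fcgr4 was not tested.

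**Figure D4:**
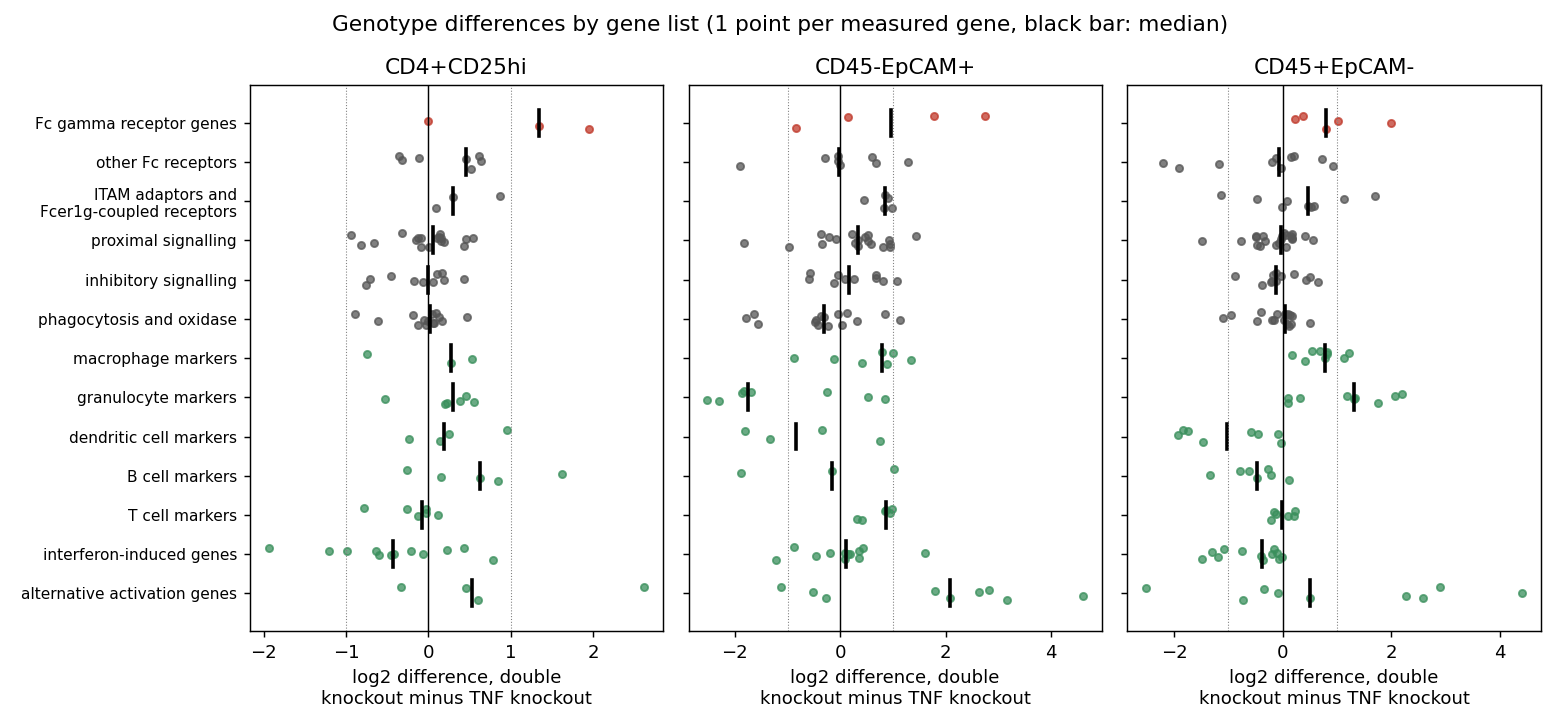
Differences (log2, double knockout minus TNF knockout) of the Fc gamma receptor genes (red), of Fc receptor pathway genes by role (grey) and of marker lists (green), with 1 point per gene with a fold and a black bar at the median; dotted lines mark 2-fold. In CD45+EpCAM- stroma the macrophage markers lie above 0 with a median of 0.77, the interferon-induced genes lie below it, and Fcgr4 at 1.99 lies beyond the macrophage markers.

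Across the populations the family fell into 2 kinds of profile. Fcer1g and Fcgr2b were highest in CD45+EpCAM- stroma and lowest in CD4+CD25hi thymocytes, and Fcgr1 was lowest there too. Fcer1g averaged 2.49 in CD45+EpCAM- stroma, 1.50 in CD45-EpCAM+ epithelium and -2.39 in CD4+CD25hi thymocytes, and in that order no population's 2 arrays overlapped those of the next. Fcgr2b averaged -2.08 in CD45+EpCAM- stroma and -3.74 in CD45-EpCAM+ epithelium, and since it was not well above background in CD4+CD25hi thymocytes, CD45+EpCAM- stroma was at least 6.05-fold higher than these. With normexp these gaps were much smaller, at 0.76 (log2) between stroma and thymocytes and 0.06 between stroma and epithelium for Fcgr2b. Fcgr1 averaged -2.43 in CD45+EpCAM- stroma and -2.64 in CD45-EpCAM+ epithelium, whose arrays overlapped, and -4.35 in CD4+CD25hi thymocytes, below every other array; stroma minus thymocytes was 1.92, and 0.30 with normexp. The second kind had no clear order of populations: Fcgr3 averaged -1.41, -1.83 and -1.59 and Fcgr4 -1.68, -2.47 and -1.68 in stroma, epithelium and thymocytes, and the arrays of every pair of populations overlapped. How many of all genes have arrays that separate by population is not given here. The arrays of a population shared a slide that held no other population, and slide and population cannot be told apart. Over the 6 arrays Pearson's r was 0.94 between Fcgr2b and Fcer1g, 0.87 between Fcgr1 and Fcgr2b, 0.82 between Fcgr1 and Fcer1g, and -0.02 between Fcgr3 and Fcgr4; these points share the populations and the scaling of each array.

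Among 12947 other genes detected well above background on 4 or more arrays, those with the profile most like Fcgr4 over the 6 arrays were Syf2 (Pearson's r = 0.996), 4831440E17Rik (0.988) and Siah1a (0.974), although Syf2 differed between genotypes by 0.27 at most. The nearest to Fcgr1 was H2al1m (0.981), which differed by 1.62 in epithelium and 1.18 in stroma, followed by Gm9958 (0.973) and Dtd2 (0.966). Nearest to Fcgr2b were Cd163l1, Mettl9 and Sapcd1 (0.996 each), although Fcgr2b was well above background on 3 of the 6 arrays only, which limits every r given for it. Nearest to Fcer1g were Gga1 (0.995), Zbtb16 (0.992) and Elovl6 (0.991), and nearest to Fcgr3 were Rabl3 (0.958), Copb1 (0.905) and Tha1 (0.904). None of these except H2al1m and Cd163l1, which was at 1.28 in epithelium, was 2-fold apart between genotypes in any population with a fold. These are the highest of many correlations over 6 points.

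In the order of GRCm38.p6, among array genes, Fcgr4 stands between Fcgr2b and Fcgr3 on chromosome 1, with Fcer1g farther along. Of the 17 other genes from 5 before this stretch to 5 after it, 12 had a fold in the thymocytes, 14 in the epithelium and 14 in the stroma, and none was at least 2-fold higher in the double knockout; the highest was Nr1i3 at 0.72 in CD45+EpCAM- stroma. Pcp4l1 (-1.56) and Adamts4 (-1.13) were at least 2-fold lower in epithelium, and Fcrla (-2.19), next to Fcgr2b, in stroma. On chromosome 3 Txnip, which was 2-fold higher in every population, stands 3 array genes after Fcgr1, and BC107364, directly after Fcgr1, was 2-fold higher in epithelium (1.09). The histone genes on the other side of Fcgr1 differed by between -0.48 and 0.76.

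Genes that work with the Fc gamma receptors were followed in the same way. Of 79 such genes, 52 had a fold in CD4+CD25hi thymocytes and none was 2-fold apart, against 1.68% of all genes higher and 1.28% lower. Oscar, which encodes a receptor that uses the gamma chain, came nearest on the higher side at 0.87, before the Fc receptor-like genes Fcrl1 (0.64) and Fcrl5 (0.61), and the kinase genes Btk, Pak1 and Syk differed by -0.94, -0.90 and -0.82. In CD45-EpCAM+ epithelium 4 of 57 were at least 2-fold higher and 5 lower, against 5.1% and 9.3% of all genes. Those higher included Lat, an adaptor of T cells and mast cells (1.43), Fcer1a, the alpha chain of the high-affinity immunoglobulin E receptor (1.29), and Was (1.14), and those lower included Blnk (-1.82) and the NADPH oxidase genes Ncf1 (-1.79) and Ncf4 (-1.63). Of 68 in the stroma, 2 were at least 2-fold higher, Clec4n (1.13), a lectin receptor coupled to the gamma chain, and Clec4d, which was at least 3.22-fold higher, against 1.82% of all genes. There 6 were at least 2-fold lower, among them Fcrla (-2.19), Fcmr (-1.90) and Blnk (-1.48), genes best known from B cells, and Tyrobp (-1.14), which encodes the other ITAM adaptor of myeloid cells, against 2.08% of all genes. The inhibitory phosphatase gene Inpp5d, which acts downstream of Fcgr2b, differed by -0.17, -0.60 and -0.13 in thymocytes, epithelium and stroma. The neonatal receptor gene Fcgrt, whose product recycles immunoglobulin G, differed by 0.60 in epithelium and 0.93 in stroma. Pigr, which encodes the receptor that carries immunoglobulin A across epithelia, differed by 0.72 in stroma. Its probe was nearly as bright in thymocytes (4.55 in the double knockout, 4.91 in the TNF knockout) as in epithelium (4.99 and 5.04). Whether that probe reads Pigr alone was not checked. By role, the stroma had median differences of 0.46 over 9 ITAM adaptors and receptors that use the gamma chain, -0.03 over 21 proximal signalling genes, -0.12 over 12 inhibitory signalling genes, 0.04 over 16 genes of phagocytosis and the oxidase, and -0.07 over 10 other Fc receptors.

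In the genotype effect common to the populations, fitted with limma over 13743 genes with population as a block, none of 64 pathway genes tested passed an adjusted p of 0.05 and 8 had an unadjusted p under 0.05. Over all genes 0.0% passed (0 of 13743), and 6.35% had an unadjusted p under 0.05.

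Between populations the pathway genes differed widely, as tested with limma, where genotype entered the fit and a call needed 2-fold and an adjusted p under 0.05. In CD45+EpCAM- stroma against CD4+CD25hi thymocytes 16 of 64 were higher and 4 lower, where 7.81% and 4.8% of all genes were. Pirb and Sirpa, inhibitory receptors of myeloid cells, were at least 48.1-fold and 49.9-fold higher (limma adjusted p = 0.0091 for each). Clec4n was at least 90.5-fold (limma adjusted p = 0.0092) and Fcgrt at least 12.8-fold higher (limma adjusted p = 0.0091). These folds are bounds, since none of these genes was well above background in the thymocytes. Their p-values belong to the fitted log2 differences of 7.43, 7.44, 6.84 and 5.22 in the same order, and not to the bounds. Vav3 (-1.55, SE 0.16, limma adjusted p = 0.019) and Cblb (-1.49, SE 0.20, limma adjusted p = 0.027) were lower, as were Pik3r1 (-1.27, limma adjusted p = 0.028) and Inppl1 (-1.29, limma adjusted p = 0.043). With any 1 of the 4 arrays of this contrast left out, 0 of these 20 calls were made, the lone array then being assumed to vary like the others, and with no filter on dim genes 11 pathway genes were called higher and 0 lower.

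In CD45+EpCAM- stroma against CD45-EpCAM+ epithelium 30 of 64 pathway genes were higher and 6 lower, where 19.2% and 19.4% of all genes were. Higher were 5 of 7 ITAM adaptors and receptors that use the gamma chain, 7 of 12 inhibitory, 10 of 21 proximal, 5 of 15 phagocytosis and 3 of 9 other Fc receptor genes. Fyn (3.58, SE 0.17), Hcst (3.57, SE 0.18), Pik3cd (4.34, SE 0.24) and Dok2 (4.67, SE 0.29) were higher, and Src (-4.21, SE 0.23), Asap2 (-2.20, SE 0.16), Vav3 (-1.70, SE 0.16) and Dok1 (-1.93, SE 0.19) lower, with limma adjusted p between 0.0022 and 0.0054; Src was well above background on 1 of its 2 stroma arrays, so that the size of its difference is uncertain. Without the double-knockout or the TNF-knockout CD45+EpCAM- array 17 and 15 genes were called in place of 36. In CD45-EpCAM+ epithelium against CD4+CD25hi thymocytes 18 were higher and 28 lower, where 20.7% and 18.3% of all genes were, with Pirb at least 12.5-fold, Fcgrt at least 16.7-fold and Sirpa at least 27.0-fold higher and Marcks higher by 3.65 (SE 0.17). Fyn (-4.03, SE 0.17), Hcst (-3.83, SE 0.18), Pik3cd (-5.02, SE 0.24) and Dok2 (-5.12, SE 0.29) were lower, all of these at limma adjusted p between 0.0012 and 0.0021. For Pirb, Fcgrt and Sirpa the p-value is that of the fitted difference and not of the bound. Without the TNF-knockout CD4+CD25hi array 28 genes were called in place of 46. The spread behind these p-values is that of the genotype difference from one population to another, and not the spread between pools of mice.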

How the data were processed

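The authors read each spot's intensity from scans of array design 026655, with software version 10.5.1.1 of Feature Extraction per the file headers, whereas version 9.5 of Agilent Feature Extraction stands in the submitters' processing notes. RNA was amplified and labelled with Cy3, per the labels' protocols. The deposited value table is on a log2 scale that no source used here states; it equalled the values computed here to within 0.0054 per array plus 0.05 per probe for 100.0% of values, and its column medians lay between -3.72 and -2.72. The flags for outlier and dim spots are the scanner software's own, per the file headers, and other columns were not used.

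Control spots and outlier spots were left out. Of 39429 probes 39419 were used, and log2 of the processed signal, averaged over a probe's spots, was taken minus the array's 75th percentile. Probes were named by matching their transcript accessions, without versions, to a RefSeq table of GRCm38.p6, with 1 symbol for 27472 probes (69.7%), several for 35 and none for 11912; probe positions are left out because the design's build, mm9, is another one. A gene was represented by its brightest probe. The probes are A_55_P2008740 (Fcgr1), A_51_P130095 (Fcgr2b), A_52_P408757 (Fcgr3), A_51_P181517 (Fcgr4) and A_51_P405476 (Fcer1g). Probe sequences were not used here, so that cross-hybridization within this family of similar genes was not checked. No spot was saturated.

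A genotype difference was computed where either array held the gene well above background. For a gene dim on the other array, the higher of its level there and that array's lowest detectable level was used, which gives a bound, and a gene left with no fold was dropped. Genes detected so on 3 or more arrays were fitted with limma 3.58.1 in R 4.3.3 (2 residual degrees of freedom, prior of 1.74), with Benjamini-Hochberg adjusted p-values, after a check of the fit on simulated data. Alternatives were normexp (offset 50, on the median spot and background signals, as the files hold no mean signal), quantile normalization, scaling to the median of detected probes, the mean over probes and the deposited table.

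The genes, their lists of 79 pathway genes in 5 roles and 12 marker lists were chosen with earlier results of these data known. The lists are other Fc receptors, ITAM adaptors and receptors that use the gamma chain, proximal signalling, inhibitory signalling, phagocytosis and oxidase, and macrophage, monocyte, dendritic cell, granulocyte, mast cell and basophil, B cell, NK cell, T cell, regulatory T cell, thymic epithelial, alternative activation and interferon-induced genes. The rule for named genes takes every member, the 3 genes most like it, the up to 3 largest pathway differences per direction and population, the up to 4 pathway genes with the smallest p per direction and contrast, the markers with the highest levels, those of the sorts, Rela and Tnf. Clec4d, Inpp5d, Chil3, Txnip, Abca1, neighbouring genes and most single markers were named after their values were seen.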

Additional observations from a re-analysis of the deposited data

Results flagged for a closer look

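Fcgr3 differed in opposite directions in epithelium and stroma, each by more than the SD between probes for the same gene. Its difference, double knockout minus TNF knockout, was -0.85 in CD45-EpCAM+ epithelium and 0.79 in CD45+EpCAM- stroma. The disparity between the fractions was not tested, as each has 1 array per genotype. In CD45-EpCAM+ epithelium the processed signal was 22.6 units on the double-knockout array and 140 units on the TNF-knockout array, and with normexp the difference there was 0.06.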

How the results depend on the processing

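With normexp the genes of the family at least 2-fold apart numbered 0 in CD4+CD25hi and 1 in CD45+EpCAM- stroma, against 2 in each, and with quantile normalization 1 in CD45+EpCAM- stroma; the cause was not tested. Pathway genes at least 2-fold apart numbered 15 in CD45-EpCAM+ epithelium with quantile normalization, against 9, and 5 in CD45+EpCAM- stroma with normexp, against 8. Genes at least 2-fold higher in all populations numbered 1 with normexp and 28 without the CD45-EpCAM+ pair, against 4, both chosen after seeing the data; the last asks for fewer populations. Pathway genes called between CD45+EpCAM- and CD4+CD25hi cells were 11 with no filter on dim genes, against 20, and none of the 11 was lower. Leaving out each array gave 0 to 25 calls in that contrast, 15 to 39 between CD45+EpCAM- and CD45-EpCAM+ epithelium, 28 to 45 between CD45-EpCAM+ and CD4+CD25hi cells, and 0 for the common genotype effect. Of 12 genotype differences of the family, 8 moved by more than the SD between probes for a gene with normexp, 2 with quantile normalization and 0 with scaling to the median of detected probes; the mean over probes and the deposited table could move none. Of 15 population differences, 7, 4 and 1 moved by more than their spread over genotypes. No genotype difference of 2-fold changed its sign. Smaller genotype differences that changed sign with normexp were those of Fcgr3 (0.06) and Fcer1g (-0.04) in CD45-EpCAM+ epithelium. Some population differences changed sign with normexp too. For stroma minus epithelium, Fcgr1 was at -0.42 with normexp, against 0.22, and Fcgr3 at -0.18, against 0.41. For epithelium minus thymocytes, Fcgr3 was at 0.18, against -0.23. For stroma minus thymocytes, Fcgr4 was at -0.17, against 0.01. No paired analysis was possible because the labels carry no replicate numbers; the fit of the common genotype effect takes the 2 arrays of a population as a block. Dim levels limit Fcgr1 and Fcgr2b outside CD45+EpCAM- stroma, and low signals enter some differences of the other genes too. In CD45-EpCAM+ epithelium Fcgr4 had 25.8 units in the TNF knockout and Fcgr3 22.6 units in the double knockout. Fcer1g had 31.0 units in TNF-knockout CD4+CD25hi thymocytes. The number of arrays limits the precision of every difference.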

Other observations

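Other marker lists gave values that belong to no comparison above. Differences here are double knockout minus TNF knockout. The mast cell and basophil markers, of cells that use the gamma chain with Fcer1a, had median differences of 0.14, -0.53 and 0.28 in thymocytes, epithelium and stroma. Among them Cpa3, a protease gene of mast cells, differed by 2.26 in CD45-EpCAM+ epithelium and 0.49 in CD45+EpCAM- stroma. In the epithelium Mcpt4 (-1.82) and Hdc (-1.81) went the other way, and 3 of 5 measured markers of this list were below 0. The list's summed signal there was lower in the double knockout than in the TNF knockout. Regulatory T cell markers had medians of 0.25, 1.21 and -0.21 and thymic epithelial markers of 0.42, 0.06 and -0.01. Arg1 was at least 21.1-fold higher in double-knockout CD45+EpCAM- stroma, where it was not well above background in the TNF knockout, and Ccl24 differed by 2.58 there. Both belong to the list of 9 alternative activation genes, of which 5 were above 0 and 4 below it in the stroma, with a median of 0.50. The summed signal of that list in the stroma was 46.6 in the double knockout and 51.7 in the TNF knockout.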
